A study of Mus musculus with 7 samples.

Results

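The cytosolic ribosomal protein genes were followed in mouse hindlimb tendon 3 weeks after a burn and tendon injury. They were chosen by symbol: protein-coding genes named Rpl or Rps followed by a number, without the Rps6k kinases and the symbols marked as pseudogenes, plus Rplp0, Rplp1, Rplp2 and Rpsa. This gave 86 genes of the 42689 in the tables. By name, 43 encode proteins of the large subunit, 31 of the small subunit and 3 the P stalk, and 8 are paralogues such as Rpl3l. The remaining one, Rps19bp1, matches the symbol pattern but is not a ribosomal protein. After removal of genes with low counts, 83 of the 86 entered the tests. Rpl10l, Rpl39l and Rps27 did not.

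The cytosolic ribosome is built from a small subunit, which reads the mRNA, and a large subunit, which joins amino acids and releases the chain through an exit tunnel. Nearly all of its proteins are present in a single copy per ribosome, and their mRNAs carry a terminal oligopyrimidine tract at the 5′ end through which mTOR signalling controls their translation. A few members have a paralogue used in one kind of tissue, of which Rpl3l, expressed in skeletal muscle and heart, is the best known.

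All mice were of C57BL/6 background. The contralateral (3 libraries) and tenotomy (2 libraries) groups came from mice with a partial-thickness burn on the back, made with a metal block at 60 °C for 18 s over 30% of the body surface, and a cut through the Achilles tendon of one hindlimb. Tenotomy libraries were made from the cut tendon and contralateral libraries from the intact limb, both 3 weeks after injury. The uninjured group (2 libraries) had neither burn nor tenotomy. The design text names a model of heterotopic ossification and the kinase TAK1 as the study's subject, and the labels name no genetic change. Tissue was taken between the gastrocnemius insertion and the heel bone, and the labels give neither age, sex nor whether animals were pooled. Nothing in the labels states that libraries of a group came from separate animals, so p-values measure the spread between these libraries, which may be technical.

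Libraries held between 25927171 and 36725106 estimated counts. Between 76.4% and 81.4% of them fell on 5 features, which left 4934057 to 8375626 counts for all other genes. These were, with their mean share, Gm42418 (50.2%), Lars2 (14.3%), a transcript matched to no gene (5.45%), Mir6236 (4.84%) and mt-Rnr2 (4.26%). Together they held 76.4% to 77.2% in contralateral, 80.8% to 81.3% in tenotomy, and 81.4% and 79.4% in uninjured libraries. The libraries labelled uninjured differed widely in muscle, leukocyte, proliferation, cartilage, adipocyte and Schwann cell markers, and lay close together in tendon markers. Skeletal muscle markers (16 of 16 detected) summed to between 22360 and 24575 CPM (counts scaled to a common library total) in contralateral libraries and to 1876 CPM in both tenotomy libraries. In the libraries labelled uninjured they summed to 2400 CPM in replicate 1 and 16427 CPM in replicate 2. Macrophage and leukocyte markers (12 genes) summed to 31.2 to 39.0 CPM in contralateral and 137.0 to 140.0 CPM in tenotomy libraries, and to 139.5 and 39.8 CPM in uninjured replicates 1 and 2. Proliferation markers (8 genes) summed to 3.402 to 3.69, 14.9 to 16.2, and 12.9 and 3.18 CPM in the same order. Tendon markers (11 genes, among them Scx and Tnmd) were detected in every group, at 999 to 1435 CPM in contralateral, 4988 to 5003 CPM in tenotomy, and 4606 and 4144 CPM in uninjured libraries. Cartilage markers (8 genes) summed to 46.5 to 92.7 CPM in contralateral, 377.6 to 377.7 CPM in tenotomy, and 187.2 and 86.5 CPM in uninjured libraries. Adipocyte markers (6 genes) summed to 121.9 to 153.4, 59.6 to 59.7, and 57.03 and 163.2 CPM in the same order. Schwann cell markers (4 genes) summed to 91.0 to 103.7, 63.0 to 66.2, and 45.3 and 148.8 CPM in that order. No marker of these lists was at 0 in every library. In bulk tissue, fewer cells of a type and less RNA per cell cannot be told apart.

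The coding sequences of 3 paralogue pairs are shown because the balance within each pair is described here and because their differences allow short reads to be assigned to one or the other. Each line gives the first 60 coding bases from the start codon, 5′ to 3′, from the GENCODE M21 transcripts (GRCm38), with capitals at positions where the pair differs.
Rpl3: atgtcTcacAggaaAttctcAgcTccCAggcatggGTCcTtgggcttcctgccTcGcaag
Rpl3l: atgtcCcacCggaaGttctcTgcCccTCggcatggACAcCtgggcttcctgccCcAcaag
Rpl36a: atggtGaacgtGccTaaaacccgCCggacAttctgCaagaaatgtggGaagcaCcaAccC
Rpl36al: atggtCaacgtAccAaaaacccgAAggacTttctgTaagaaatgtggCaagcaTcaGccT
Rps27: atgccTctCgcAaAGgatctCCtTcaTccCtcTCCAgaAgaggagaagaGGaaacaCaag
Rps27l: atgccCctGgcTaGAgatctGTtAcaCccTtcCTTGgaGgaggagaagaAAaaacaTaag

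Over the whole aligned coding sequence, Rpl3 (chr15:80077791-80091868) and Rpl3l (chr17:24727820-24736143) shared 894 of 1206 bases, or 74.1%. Rpl36a (chrX:134585654-134588062) and Rpl36al (chr12:69182731-69184083) shared 87.7%, and Rps27 (chr3:90212522-90213651) and Rps27l (chr9:66946086-66949516) shared 76.2%. Other copies cannot be separated in this way. The coding sequence of Rps27rt (chr9:114982366-114982739), an intronless copy, was the same as that of Rps27 at all 252 bases. Rps27 was listed at 0 estimated counts in every library, and Rps27rt held 14.8 to 25.9 CPM.

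Copies of this kind are a property of the whole family. Of the 86 members, 75 had at least 1 other gene whose transcript matched 80% or more of their coding sequence at 95% identity or more, in 422 gene pairs. For 76 members under 10% of the counts of the member and its copies lay on the copies, counting Rpl10l, which had none on either. For 7 members (Rpl5, Rpl10, Rpl12, Rpl27, Rpl35, Rps12 and Rps27) over 50% did, so the level of the member alone does not measure its mRNA. Rps12 is the clearest case: its own estimated counts were 188 in contralateral replicate 1, 363 in tenotomy replicate 2 and at most 1.45 in every other library. Together with its copies, mainly Rps12-ps3, Rps12 had 575, 767 and 746 counts in contralateral, 1604 and 1322 in tenotomy, and 1387 and 647 in uninjured libraries. Summed in this way, Rps12 was higher in tenotomy than in contralateral libraries by 0.98 ± 0.30 (log2 fold change ± SE, adjusted p = 0.0461, edgeR with the copies of every member added, an alternative chosen after seeing the data). Fold changes of Rps12 alone are therefore not given. Of the other members with over 50% on copies, Rpl12 was called higher in that fit (0.84 ± 0.26, edgeR adjusted p = 0.0478). Rpl5, Rpl10, Rpl27, Rpl35 and Rps27 were not called. Rpl27 had a log2 fold change of 0.89 by its own counts and of 0.01 ± 0.16 with its copies (edgeR adjusted p = 0.966).

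Levels are compared between members only per transcript length (TPM). On that scale the median member stood at 4.16 over all libraries. The highest members were Rps27rt at 19.7 TPM, Rplp1 at 19.1 TPM and Rpl34 at 13.8 TPM. The value of Rps27rt cannot be separated from that of Rps27, which has the same coding sequence and was listed at 0. Apart from Rps27, the lowest conventional members were Rpl12 at 0.199 TPM and Rpl27 at 0.246 TPM, both among the members whose counts lay mostly on copies. The median count of a member in a library lay between 320 and 668.

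As a block, the members were higher at the tenotomy site than in the contralateral tendon. Their median level was 3.59, 3.69 and 3.72 log2 CPM in the contralateral libraries and 4.19 and 4.15 log2 CPM in the tenotomy libraries. Both tenotomy libraries lay above all 3 contralateral libraries, and replicates of either group differed by less than the gap between the groups. The median log2 fold change over the 83 members was 0.49 (1.41-fold), against -0.0012 over all 16028 genes tested, and 78 of the 83 had a fold change above 0. Of the members, 24 rose and 1, Rpl3l, fell at an adjusted p below 0.05 (edgeR quasi-likelihood test), where 13.6% of all genes rose and 15.4% fell. In 66 members both tenotomy libraries were higher than all contralateral libraries, and in 3 both were lower, against 31.8% of all genes in either direction. Muscle markers (16 of 16 called) and adipocyte markers (3 of 6) were lower in the same comparison. Leukocyte markers (9 of 10 tested), proliferation markers (6 of 7), tendon markers (6 of 11) and cartilage markers (6 of 7, with 1 lower) were higher. Of the other lists, 2 of 5 erythroid and 1 of 4 Schwann cell markers were higher and 1 of 5 endothelial markers was lower. Their part in the members' difference was not tested.

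**Figure D1:**
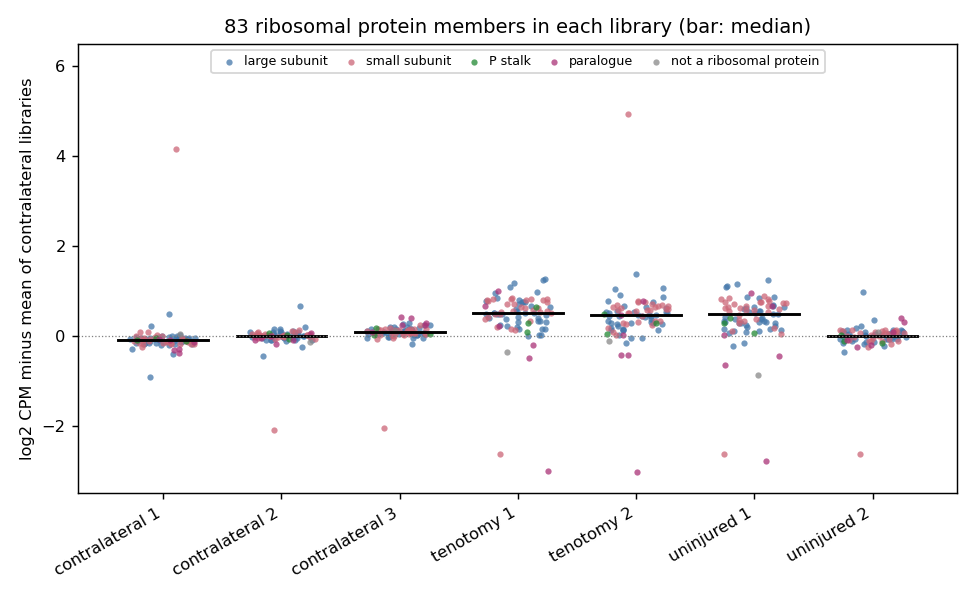
Each point is 1 of the 83 tested members in 1 library, as log2 CPM minus the mean of the 3 contralateral libraries, coloured by class; black bars are the library's median. The medians of both tenotomy libraries and of uninjured replicate 1 lie near 0.5 and that of uninjured replicate 2 near 0; the points above 4 are Rps12, whose counts lie mostly on copies, and the points below -2 are Rps12 and, in the tenotomy libraries and uninjured replicate 1, Rpl3l.

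As a share of the counts outside the 5 abundant features, the members made up 0.479%, 0.478% and 0.465% in contralateral libraries and 0.903% and 0.881% in tenotomy libraries. The widest 95% Wilson interval of these shares, that of tenotomy replicate 2, ran from 0.873% to 0.889% and covers counting error only. The groups did not overlap, and the ratio of their means was 1.88. The summed CPM of the members, which is scaled by TMM so that most genes keep the same level between libraries, was 1135 ± 70.8 (SD, n = 3) in contralateral and 1575 ± 46.5 (SD, n = 2) in tenotomy libraries. With 2 libraries against 3, the exact permutation test of the share (two-sided) gave p = 0.2, the smallest it allows.

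The number of calls depended on whether both uninjured libraries were in the fit. The common dispersion, the squared relative spread between libraries of a group, was 0.0465 with all 7 libraries and 0.00860 with the tenotomy and contralateral libraries only. Fitted with tenotomy and contralateral libraries only, 60 members rose and 2, Rpl3l and Rpl36al, fell, where 22.1% of all genes rose and 24.1% fell. Without uninjured replicate 1 or 2, 60 members rose (21% and 21.2% of all genes) and 1 and 2 fell (22% and 22.3%). The numbers in the sample titles fall into 3 series, with the contralateral libraries and tenotomy replicate 1 in one, tenotomy replicate 2 and uninjured replicate 1 in another, and uninjured replicate 2 alone; the labels do not say what the numbers stand for. With this series as a covariate, 53 members rose (16.6% of all genes) and 1 fell (18.2%). That covariate fit set tenotomy replicate 1 alone against the 3 contralateral libraries, because tenotomy replicate 2 served only to fit its series. It measured spread among contralateral libraries only, so its calls cannot serve as a check of the main fit. The members' median log2 fold change in it was 0.51. When length-scaled TPM were tested, 4 members (Rpl3, Rpl39, Rpl41 and Rps15a) rose (9.17% of all genes) and Rpl3l fell (11.1%). DESeq2 called 19 higher (10.5%) and Rpl3l lower (12.9%). Without any one of the contralateral or tenotomy libraries edgeR called no gene of any kind. In those fits the members' median was between 0.45 and 0.54, and that of all genes between -0.023 and 0.0026.

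Among the 43 proteins of the large subunit, 10 rose, none fell and the median log2 fold change was 0.46. Those that rose were Rpl3, Rpl10a, Rpl11, Rpl13a, Rpl17, Rpl18, Rpl34, Rpl36a, Rpl39 and Rpl41. The largest change was that of Rpl3, which reaches towards the peptidyl transferase centre. It stood at 14.6, 11.9 and 11.01 CPM in contralateral, 29.9 and 32.4 CPM in tenotomy, and 29.7 and 15.9 CPM in uninjured libraries. Both tenotomy libraries were far above the highest contralateral one, and the rise was 1.32 ± 0.27 (log2 ± SE, adjusted p = 0.0167).

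Rpl41, the shortest of the ribosomal proteins, followed with 17.9, 20.3 and 22.2 CPM in contralateral and 42.8 and 41.6 CPM in tenotomy libraries, a rise of 1.07 ± 0.30 (adjusted p = 0.0360, edgeR). Rpl13a stood at 9.53, 10.1 and 10.6 CPM against 22.9 and 18.9 CPM and rose by 1.05 ± 0.31 (adjusted p = 0.0394, edgeR). Rpl39, a small protein that lines the exit tunnel, stood at 6.37, 7.28 and 7.06 CPM against 13.6 and 14.5 CPM and rose by 1.02 ± 0.24 (adjusted p = 0.0212, edgeR). In each of these genes the groups were separated by more than the spread within either. Its germline paralogue Rpl39l had at most 5 counts in any library. Rpl17 (0.92 ± 0.27) and Rpl34 (0.81 ± 0.22) rose as well, by edgeR adjusted p = 0.0385 and 0.0303.

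Rpl24 was the large-subunit member with the smallest value. It stood at 8.93, 13.0 and 14.0 CPM in contralateral and 11.9 and 10.4 CPM in tenotomy libraries (log2 fold change -0.10 ± 0.22, adjusted p = 0.761, edgeR). Its groups overlapped. Rpl18 was called with the smallest change of the 24 risers, 0.47 ± 0.13, and its replicates lay close together, at 6.78, 7.55 and 7.69 CPM against 10.3 and 10.1 CPM.

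Of the 30 tested small-subunit proteins, 13 rose, none fell and the median log2 fold change was 0.60. Those that rose included Rps3, Rps4x, Rps7, Rps9, Rps15a, Rps16, Rps18, Rps19, Rps23, Rps26, Rps27a and Rps28. The difference between the subunits' medians was not tested. Rps23, a protein of the decoding centre, stood at 11.3, 12.0 and 12.1 CPM in contralateral and 21.0 and 19.96 CPM in tenotomy libraries and rose by 0.79 ± 0.22 (adjusted p = 0.0342, edgeR). Rps19, mutated in Diamond-Blackfan anaemia, stood at 4.83, 5.75 and 6.78 CPM against 10.1 and 9.89 CPM and rose by 0.79 ± 0.22 (adjusted p = 0.0346, edgeR). Rps16 stood at 6.63, 6.29 and 6.83 CPM against 11.6 and 11.1 CPM and rose by 0.78 ± 0.21 (adjusted p = 0.0321, edgeR). All 3 were well separated between the groups.

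Rps4x, the X-linked form of this protein, stood at 24.6, 25.2 and 24.6 CPM in contralateral and 34.6 and 35.5 CPM in tenotomy libraries and rose by 0.50 ± 0.16 (adjusted p = 0.0491, edgeR). Rps6, the substrate of S6 kinase, stood at 22.7, 23.4 and 24.4 CPM against 36.0 and 35.5 CPM. Its groups did not overlap, yet its difference of 0.60 ± 0.21 did not pass (adjusted p = 0.0610, edgeR). Rpsa, also known as the laminin receptor precursor, stood at 26.5, 29.2 and 33.5 CPM against 43.1 and 43.5 CPM (0.54 ± 0.22, adjusted p = 0.103, edgeR). Rps13 was the small-subunit member with the smallest value, at 0.10 ± 0.17, and its groups overlapped.

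The P stalk recruits the translation factors that hydrolyse GTP. In the fit of all libraries none of its 3 genes was called by edgeR, with a median log2 fold change of 0.28. There, 1 (Rplp1) was higher at an unadjusted p under 0.05. Fitted with tenotomy and contralateral libraries only, Rplp0 and Rplp1 were called higher (edgeR adjusted p = 0.0234 and 0.000853). Rplp2 was not called in that fit (adjusted p = 0.631), where 22.1% of all genes rose. Rplp0, the anchor of the stalk, stood at 33.4, 37.3 and 37.0 CPM in contralateral and 43.7 and 43.8 CPM in tenotomy libraries (0.28 ± 0.17). Rplp1 stood at 27.1, 27.7 and 32.9 CPM against 45.8 and 40.9 CPM (0.57 ± 0.21). Rplp2, its partner, stood at 12.6, 13.1 and 13.2 CPM against 13.8 and 13.3 CPM (0.06 ± 0.14). The partners thus lay apart in size, a difference that was not tested.

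**Figure D2:**
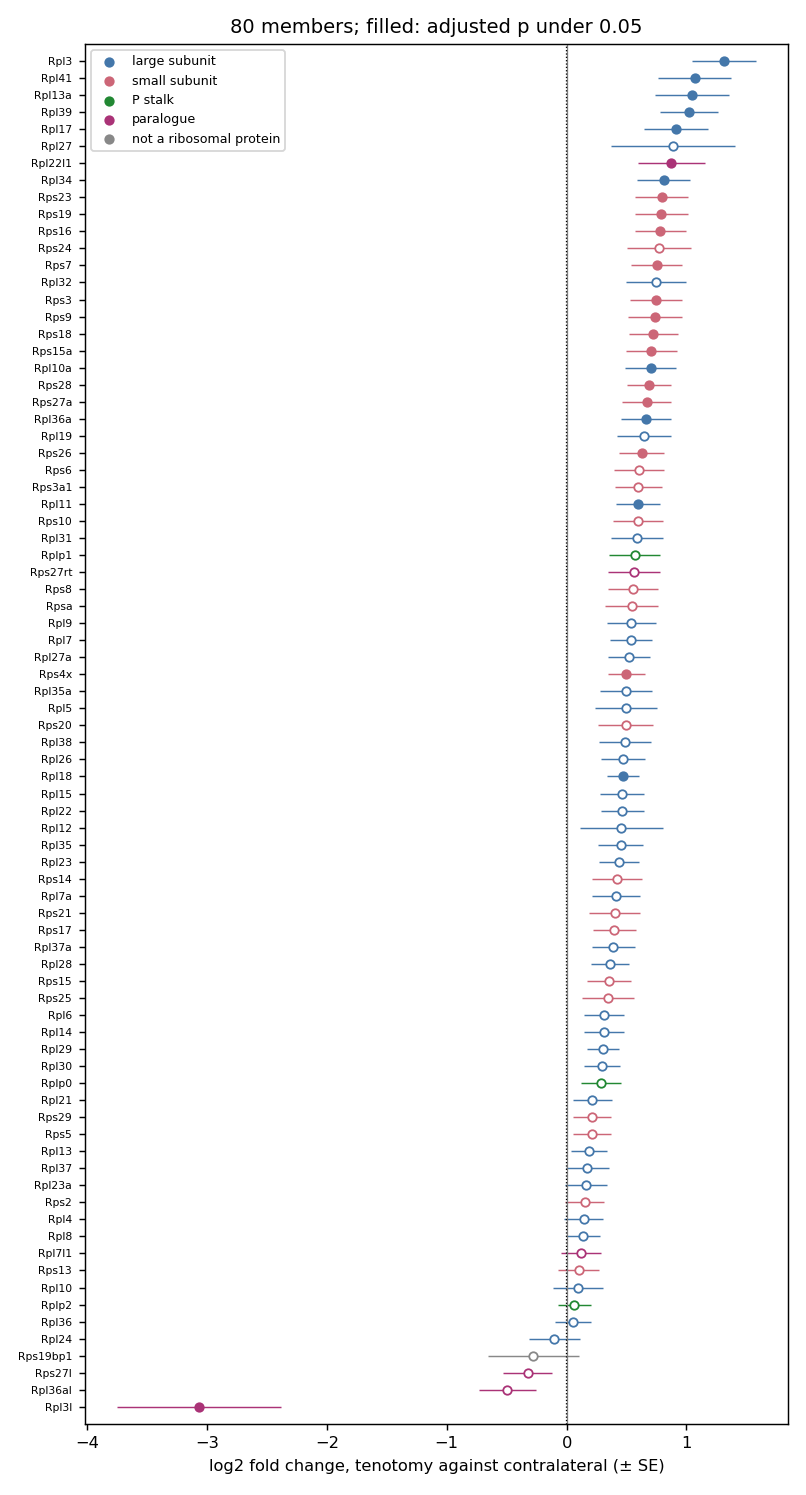
Log2 fold change of tenotomy against contralateral libraries (points) with its SE (bars) for 80 members, without Rps12 and 2 others; filled points have an adjusted p under 0.05, colours give the class and the dotted line is the median of all genes tested. Most members lie between 0 and 1, Rpl3 is highest at 1.32, and Rpl3l at -3.07 lies apart from the others.

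Paralogues did not move as a block: of the 6 tested, 1 rose and 1 fell. Rpl3l stood at 15.8, 20.4 and 22.9 CPM in contralateral, 2.37 and 2.33 CPM in tenotomy, and 2.77 and 16.8 CPM in uninjured libraries. Its log2 fold change was -3.07 (SE 0.68, adjusted p = 0.0187, edgeR), a fall, while Rpl3 rose. Per length, Rpl3l made up 51.0%, 62.1% and 67.5% of the TPM of the pair in contralateral libraries and 7.70% and 6.37% in tenotomy libraries. In the libraries labelled uninjured it made up 9.46% in replicate 1 and 52.7% in replicate 2. Where Rpl3l was the more abundant of the pair, muscle markers were high. Per 1000 CPM of the muscle markers, Rpl3l had 0.706, 0.892 and 0.934 CPM in contralateral, 1.26 and 1.24 CPM in tenotomy, and 1.15 and 1.02 CPM in uninjured libraries. On this scale both tenotomy values lay above all contralateral ones. The part of muscle markers in the fall of Rpl3l was not tested.

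Rpl36al and Rps27l were the other members with both tenotomy libraries below all contralateral ones, and neither passed the test in the fit of all libraries. Rpl36al stood at 4.65, 5.38 and 7.64 CPM in contralateral and 4.08 and 4.30 CPM in tenotomy libraries (log2 fold change -0.49 ± 0.24, adjusted p = 0.153, edgeR). Rpl36a, its relative, rose by 0.66 ± 0.21 (adjusted p = 0.0485, edgeR), from 9.79, 11.3 and 10.2 CPM to 17.8 and 15.2 CPM. The share of Rpl36al in the TPM of the pair was 29.0%, 28.7% and 39.3% in contralateral and 16.4% and 19.6% in tenotomy libraries. Rps27l, a target of p53, stood at 3.90, 3.64 and 5.04 CPM against 3.62 and 3.07 CPM (-0.32 ± 0.20, adjusted p = 0.257, edgeR). Its share beside Rps27 and Rps27rt was 12.9%, 11.9% and 12.8% in contralateral and 7.33% and 7.28% in tenotomy libraries. For both pairs the shares of the groups did not overlap.

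The pair of Rpl22 and Rpl22l1 differed from these. Rpl22l1 stood at 1.29, 1.63 and 2.25 CPM in contralateral and 3.42 and 2.91 CPM in tenotomy libraries and rose by 0.87 ± 0.28 (adjusted p = 0.04997, edgeR). Rpl22 stood at 9.74, 9.76 and 10.2 CPM against 13.8 and 13.5 CPM (0.46 ± 0.18, adjusted p = 0.0860, edgeR). The share of Rpl22l1 was 13.1%, 13.9% and 18.1% against 18.6% and 16.7%, so that the groups overlapped. In the fit of all libraries, Rps27rt (0.56 ± 0.22) and Rpl7l1 (0.12 ± 0.17) were not called. Nor was Rps19bp1, the gene that is not a ribosomal protein (-0.28 ± 0.38). Fitted with tenotomy and contralateral libraries only, Rpl22 and Rps27rt were called higher (edgeR adjusted p = 0.00125 and 0.00204). Rpl7l1 and Rps19bp1 were not called in that fit either. Rpl10l was listed at 0 in every library.

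**Figure D3:**
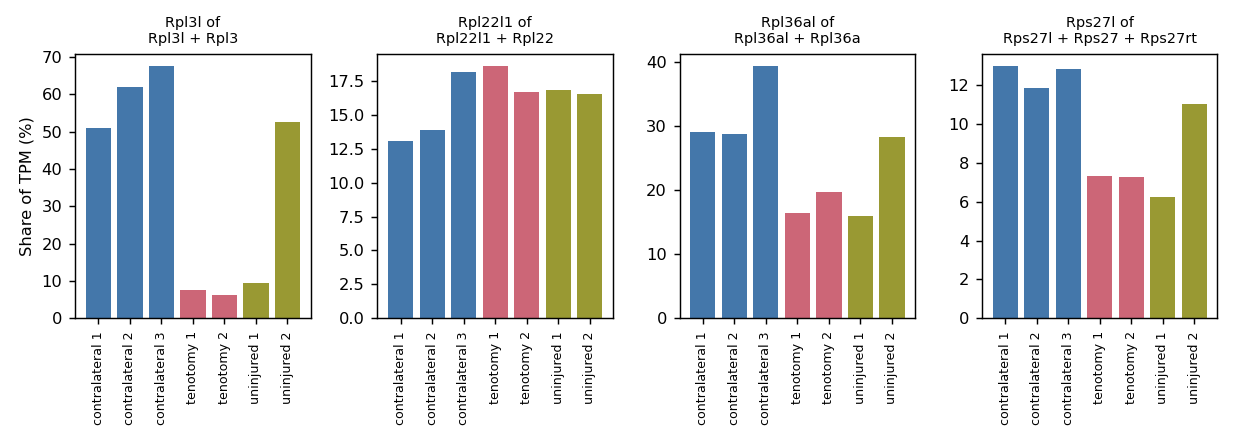
Bars give the paralogue's share (%) of the summed TPM of the paralogue and its conventional relatives in each library, blue for contralateral, red for tenotomy and olive for uninjured; each panel has its own axis from 0. Rpl3l, Rpl36al and Rps27l hold smaller shares in both tenotomy libraries and uninjured replicate 1 than in the other 4 libraries, and Rpl22l1 does not.

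Members were also divided by the share of their counts that lay on copies. Among the 67 conventional members with under 10% of their counts on copies, 22 rose, against 13.6% of all genes, and the median log2 fold change was 0.50. Among the 9 tested conventional members with 10% or more on copies, 1 rose, Rps23, and the median was also 0.50. In 6 of these 9 the groups overlapped, and the 9 include members whose own level does not measure their mRNA. The difference between these counts was not tested. With the counts of all copies added, 27 members rose, as did 2177 of all 16069 genes. Over the 76 tested conventional members, the log2 fold change had a Spearman correlation of -0.10 with effective length and of -0.01 with mean log2 CPM. These are descriptions across genes of the same libraries.

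The promoters are shown as a description, and the part of their sequence in the members' difference was not tested. The RefSeq table (GRCm38.p6) held a 300-base window, from 250 bases before to 50 after the gene start, for 66 of the 86 members. The sequence CCGGAAG, the core of an ETS-family motif, was present on either strand in 25 of the 66 (37.9%), against 9.12% of all 27025 windows. The E-box CAGCTG was present in 4 (6.06%), against 16.1%. Of 3 members with CCGGAAG, a window of 47 bases that overlaps no annotated exon is given 5′ to 3′ on the strand of the gene, with the match or its reverse complement in capitals. They lie at chr4:86857432-86857478, chr17:33955714-33955760 and chr9:120127558-120127604. In GENCODE M21 the Rps18 gene spans chr17:33951999-33956001, so by that annotation its window lies inside the gene, outside its exons.
Rps6: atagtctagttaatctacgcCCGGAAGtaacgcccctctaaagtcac
Rps18: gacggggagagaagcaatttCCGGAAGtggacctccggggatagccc
Rpsa: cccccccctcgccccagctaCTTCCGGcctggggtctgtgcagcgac

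Presence of CCGGAAG did not separate the members that rose. Of the 20 risers with a window, 6 held it (30.0%), and of the 43 other tested members with a window, 18 did (41.9%). The median log2 fold change was 0.53 in the 24 members with a match and 0.50 in the 39 without. These are descriptions of letters in a window and carry no test.

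The other lists of the translation machinery held genes that rose and genes that fell, except the mitochondrial ribosomal proteins, and the median of each was below 0. Their counts stand against 13.6% of all genes that rose and 15.4% that fell, and no difference between a list and the members was tested. Of 9 ribosomal protein fusions and ribosome-bound factors, 3 rose and 2 fell, with a median log2 fold change of -0.18. Those that rose included Fau, the fusion that encodes a small-subunit protein (0.57 ± 0.18), and Rack1, the scaffold on the small subunit (0.63 ± 0.17). The largest rise in that list was that of Rbm3 (0.70 ± 0.22) and the largest fall that of Naca, which binds nascent chains (-1.80 ± 0.38). Of 10 elongation factors, 2 rose and 2 fell (median -0.39). Eef1a1, which delivers aminoacyl-tRNA, went from 121, 110 and 96.8 CPM in contralateral to 262 and 266 CPM in tenotomy libraries. Its muscle and neuronal form Eef1a2 went from 63.4, 70.4 and 73.7 CPM to 6.34 and 6.47 CPM. As with Rpl3 and Rpl3l, one form rose (1.27 ± 0.28) while the other fell (-3.43 ± 0.66).

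Of 32 initiation factors, 1 rose and 9 fell (median -0.36). The riser was Pabpc1, the poly(A)-binding protein (0.93 ± 0.20), and the largest fall was that of Eif1 (-1.06 ± 0.26). Of 61 ribosome biogenesis genes, 1 rose and 8 fell (median -0.20). Nop58, a core protein of box C/D particles, rose by 0.54 ± 0.13. Npm1 had a larger value that did not pass (0.58 ± 0.21, adjusted p = 0.0670, edgeR), and Rrp12 fell most (-1.88 ± 0.46). Of 31 tested genes of mTOR, S6 kinase and terminal-oligopyrimidine mRNA control, 5 rose and 10 fell (median -0.31). Rps6ka1 and Myc, a transcription factor that drives ribosome production, rose by 1.30 ± 0.40 and 1.28 ± 0.25, and Rps6ka2 fell most (-2.47 ± 0.43). Of 78 mitochondrial ribosomal proteins, none rose and 43 fell (median -0.86).

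**Figure D4:**
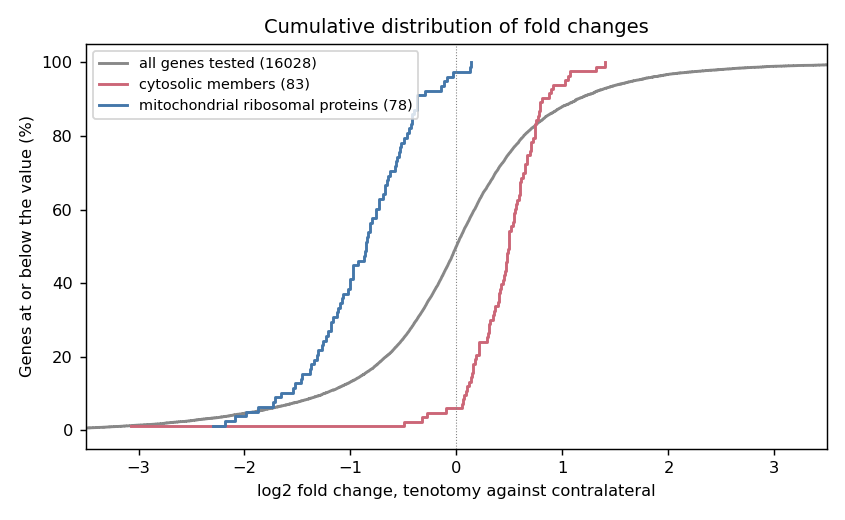
Cumulative percentage of genes (vertical axis) at or below each log2 fold change of tenotomy against contralateral libraries (horizontal axis), for all genes tested, the cytosolic members and the mitochondrial ribosomal proteins. The cytosolic curve crosses 50% at 0.49, the mitochondrial curve at -0.86 and that of all genes near 0.

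Comparisons with the uninjured group rest on 2 libraries in which the members stood at different levels. Their median was 4.14 log2 CPM in uninjured replicate 1, close to the tenotomy libraries, and 3.66 log2 CPM in replicate 2, within the range of the contralateral libraries. The members made up 0.887% and 0.4998% of the counts outside the abundant features in these libraries. Over the 83 members, uninjured replicate 1 exceeded the contralateral mean by a median of 0.48 (log2 CPM) and replicate 2 by 0.008. Replicate 1 exceeded replicate 2 by 0.52, with 75 of 83 members higher.

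Against the uninjured group, tenotomy libraries had a median log2 fold change of 0.22 over the members, and none was called (0% of all genes in either direction, edgeR). At an unadjusted p under 0.05, 0 members were higher (3.27% of all genes) and 1, Rpl3l, was lower (7.59%). DESeq2 called none higher (0.0312% of all genes) and 1, Rpl3l, lower (0.873%). Among members with a mean log2 CPM of at least 3, Rpl39, Rpl3 and Rpl41 had the largest values (0.53 ± 0.27, 0.45 ± 0.30 and 0.43 ± 0.34). Under the same limit, Rps13, Rps14 and Rpl24 had the smallest (-0.05 ± 0.19, 0.02 ± 0.23 and 0.03 ± 0.24). Without uninjured replicate 1, 46 members were called higher (11.4% of all genes) and 1, Rpl3l, lower (13.7%), with a median of 0.49. Without uninjured replicate 2, no member was called (0.0593% of all genes higher and 0.0237% lower), 0 were past an unadjusted p of 0.05, and the median was 0.01.

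Contralateral libraries lay below the uninjured group, with a median of -0.26 over the members, and again no member was called (0% of all genes in either direction, edgeR). DESeq2 also called none (0.505% of all genes higher and 0.886% lower). At an unadjusted p under 0.05, 0 members were higher (8.72% of all genes) and 5 were lower (10.5%), namely Rpl3, Rpl17, Rpl34, Rps10 and Rps23. Among members with a mean log2 CPM of at least 3, Rpl3, Rpl17 and Rpl13a had the lowest values (-0.87 ± 0.27, -0.69 ± 0.27 and -0.69 ± 0.31), and Rpl24 and Rplp2 were among the highest (0.14 ± 0.22 and 0.03 ± 0.14). Without uninjured replicate 1 the median was 0.006 with no call (0.306% of all genes higher and 0.311% lower), and 2 members (Rpl3 and Rpl7l1) were lower at an unadjusted p under 0.05. Without replicate 2 it was -0.48, with 1 member, Rpl3l, called higher (16.9% of all genes) and 48 lower (15%). In both comparisons the outcome therefore turned on which uninjured library was kept.

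Most members differed in the same direction between the pair of uninjured libraries, which shares no library with the comparison of tenotomy and contralateral tendon. Of the 83 members, 80 had the same sign in both differences, and Pearson's r across them was 0.80 (Spearman's rho 0.73). Across all 16028 genes tested, 77.3% had the same sign and Pearson's r was 0.79. The points share library scaling, and genes are not independent replicates. Rpl3l was the lowest member in both differences, and Rpl27, whose counts lie mostly on copies, and Rpl7l1 went in opposite directions. Rps12, at 0 rounded counts in both uninjured libraries, had no difference between them.

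**Figure D5:**
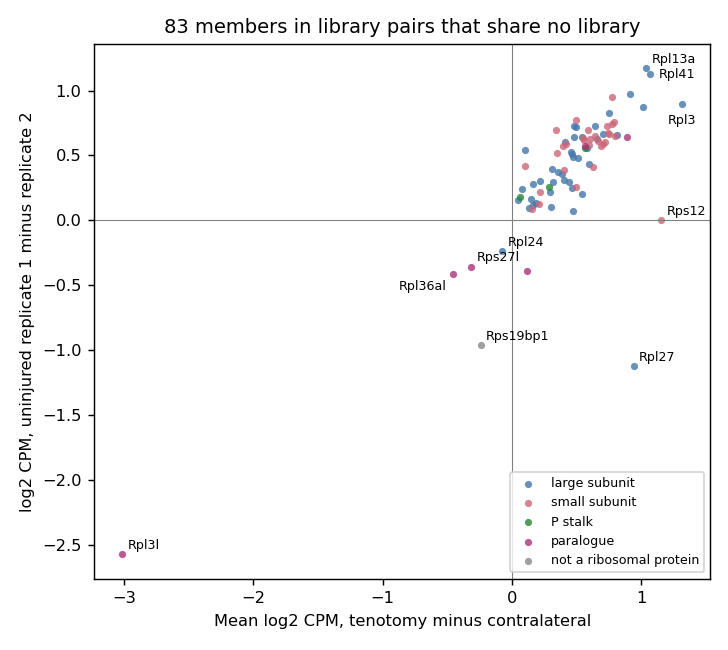
Each point is 1 of 83 members: difference in mean log2 CPM between tenotomy and contralateral libraries (horizontal axis) and between uninjured replicates 1 and 2 (vertical axis), coloured by class. Of the 83 members, 80 have the same sign on both axes, Rpl27 and Rpl7l1 have opposite signs and Rps12 lies at 0 on the vertical axis, with Rpl3l at the lower left and Rpl3, Rpl41 and Rpl13a at the upper right.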

How the data were processed

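RNA was measured in 7 libraries prepared with a TruSeq kit from total RNA, per the labels' protocols. The submitters' processing notes name kallisto and FastQC 0.11.4, and the build GRCh38, although every transcript ID is a mouse ID. The authors deposited estimated counts per transcript, which need not be whole. The TPM deposited by the authors are abundances per effective length, per the file headers.

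Transcript IDs were matched without version to GENCODE M21 (GRCm38). Of 103639 IDs, 101510 matched, 57625 with the same version, so the authors' release was another. Estimated counts were summed per gene and rounded. The 2129 unmatched transcripts stayed as single features, giving 44818. The filterByExpr function of edgeR 4.0.16 (minimum count 10) kept 16028 of them, called genes here. Scaling was by TMM (trimmed mean of M values), and log2 CPM used a prior count of 2. Group means of the 3 groups were fitted together over the 7 libraries and compared by the quasi-likelihood test, with Benjamini-Hochberg adjustment over all genes and a threshold of 0.05 (R 4.3.3). The SE is the log2 fold change divided by the square root of F. The test was run on simulated data first. Copies were found with blastn 2.17.0 and coding sequences aligned with Biopython 1.88. Permutations used scipy 1.17.1.

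Libraries were grouped by the condition label and numbered in accession order, which pairs none. Members, gene lists and the rule for naming genes were chosen with earlier results of these data known. The rule took paralogue pairs, P stalk genes, Rps6, Rpsa and Rps19bp1 whatever their values. For each comparison it added the 3 largest and 3 smallest log2 fold changes among members with a mean log2 CPM of at least 3. It further added the 3 highest and the 3 lowest conventional members by TPM, and the largest riser and faller of each list of other genes. For 2 members, values of their own are not reported here. Members that passed the test, and Fau, Rack1, Eef1a1 with Eef1a2 and the copies, were named after their values were seen. Alternatives were other scalings, DESeq2 1.42.0, no filter, fits of the compared groups only, length-scaled TPM, removal of the 5 most abundant features, added pseudogenes or copies, protein-coding transcripts only, the series of the title number as covariate and leaving out each library. Reads from the 2 strands of overlapping genes cannot be told apart here, since no source states whether counting used strand.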

Additional observations from a re-analysis of the deposited data

How the results depend on the processing

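For tenotomy against contralateral libraries, 24 members called higher and 1 lower became 60 and 2 when only these groups were fitted, 53 higher with the title-number series as covariate and 4 higher with length-scaled TPM. The covariate fit rests on tenotomy replicate 1 alone and measured no spread within tenotomy, so its calls are no check of the main fit. DESeq2 called 19 higher. The median of 0.49 became 0.61 with upper quartile scaling, which also moved the median of all genes to 0.11, and 0.43 with length-scaled TPM. Leaving out 1 contralateral or uninjured library gave 0 to 60 members higher and 0 to 2 lower. The 60 came on leaving out uninjured replicate 1 or 2, and the 0 on leaving out any 1 contralateral library, where 0 of all genes were called. With tenotomy replicate 1 or 2 left out, the median was 0.45 or 0.50. For tenotomy against uninjured libraries, DESeq2 called 1 lower in place of 0. Leaving out 1 library gave 0 to 46 higher, 0 to 1 lower and medians of 0.011 to 0.49, the upper values all without uninjured replicate 1. For contralateral against uninjured libraries, leaving out 1 library gave 0 to 1 higher, 0 to 48 lower and medians of -0.48 to 0.0057, with the sign changed without uninjured replicate 1. The causes were not tested. The other alternatives kept each count of calls at an adjusted p under 0.05 within 1.5 times. At an unadjusted p under 0.05, the 5 members lower in contralateral than in uninjured libraries became 15 with upper quartile scaling, 12 without the 5 most abundant features, 10 with no filter, 3 with length-scaled TPM, 1 with only the groups compared, and 1 to 54 on leaving out 1 library, 54 without uninjured replicate 2. No named member was called in opposite directions under any alternative. No paired analysis was possible because the labels give no replicate numbers and the groups compared share at most 1 series of title numbers. Depth limits Rpl39l, Rpl10l and Rps19bp1, which had at most 5, 0 and 18 counts in a library.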

Other observations

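The mitochondrial ribosomal proteins, which build the separate ribosome that translates the transcripts of the mitochondrial genome, went the other way from the cytosolic ones. Of 78 tested, 43 fell (15.4% of all genes) and none rose (13.6%) at the tenotomy site against the contralateral tendon (edgeR, adjusted p under 0.05). A log2 fold change above 0 was seen in 2 of the 78. In 65 of the 78 both tenotomy libraries lay below all contralateral libraries, against 31.8% of all genes. Mrpl42 stood at 4.68, 6.37 and 8.47 CPM in contralateral and 1.41 and 1.23 CPM in tenotomy libraries and fell most (-2.29 ± 0.44, adjusted p = 0.0167). Mrpl55 stood at 1.31, 2.05 and 2.54 CPM against 0.461 and 0.400 CPM. Both were low in uninjured replicate 1, at 2.01 and 0.503 CPM, and higher in replicate 2, at 5.33 and 1.14 CPM. Mrps2 had the highest value of the list (0.13 ± 0.17) and was not called. The mitochondrial ribosomal RNAs made up 8.45% to 10.4% of counts in contralateral libraries, 2.56% to 2.60% in tenotomy libraries, and 2.75% and 7.16% in uninjured replicates 1 and 2. Muscle markers moved in the same direction, and their part in these differences was not tested. Against the uninjured group, tenotomy libraries had a median of -0.37 with no call (0% of all genes in either direction). At an unadjusted p under 0.05 (edgeR), none was higher (3.27% of all genes) and 17 were lower (7.59%). Contralateral libraries had a median of 0.47 against that group, also with no call (0%). At the same unadjusted limit, 24 were higher (8.72%) and 0 lower (10.5%).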
